A study of Mus musculus with 12 samples.

Results

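MHC class I molecules display peptides from inside a cell to CD8+ T cells, and 10 genes of this presentation pathway were examined in bulk RNA-seq of mouse tongue. The genes were chosen by name and not by a measured value, though with earlier results of these data known. They are the heavy chains H2-K1 and H2-D1, the light chain B2m, the peptide transporter genes Tap1 and Tap2, the transporter-associated chaperone Tapbp, the immunoproteasome subunits Psmb8, Psmb9 and Psmb10, and the transactivator Nlrc5. All 10 were among the 32498 rows with a gene name and among the 16847 genes that passed the filter on low values (a mean FPKM of 0.1 or more, where FPKM are reads divided by gene length and library total). The libraries came from tongues of C57BL/6 mice, 5 weeks old when purchased, that drank 4-nitroquinoline 1-oxide (4NQO), a carcinogen that forms oral tumours, at 100 µg/mL for 16 weeks. Starting at week 4, gallic acid (GA), a plant phenol, was given to some of these mice at 100 mg/kg by gavage 5 times per week. Other mice received the vehicle on the same schedule. Each group gave 6 libraries, while the study treated more mice than that per group. The vehicle held methyl cellulose and Tween-20, the GA stock was made in DMSO, and no library without 4NQO was analysed here. The labels describe the tissue as tumor and tumor-associated, give no lesion grade for a library and give no animal identifiers, so p-values measure the spread between these libraries.

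In the class I pathway the proteasome cuts proteins into peptides, the TAP transporter carries the peptides into the endoplasmic reticulum, and tapasin, the product of Tapbp, holds an empty heavy chain and B2m near the transporter until a peptide binds. Interferon gamma, released by T and NK cells, acts through JAK kinases to raise most of these genes and exchanges the constitutive catalytic subunits of the proteasome for the immunoproteasome subunits. NLRC5 binds no DNA itself but joins a complex of RFX, CREB and NF-Y proteins on the X and Y boxes of class I promoters.

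These boxes are shown first because they are what NLRC5 is known to act through. RefSeq promoter windows of GRCm38.p6, 250 bases before the start of transcription, were found for 8 of the 10 members and for 27025 genes in all (32851 windows). The letters TGACG, the core of the X2 box, followed on the same strand within 40 bases by ATTGG, the Y box, were present in the windows of H2-K1, H2-D1 and B2m. That was 3 of 8 members, against 285 of all windows (0.868%). The pattern searched was the known arrangement of class I promoters, so this share describes the windows and is no test of enrichment. The distance between the first letters of both boxes was 25 bases in each of these 3 windows. In the following lines capitals mark both boxes, at chr17:34000359-34000388 on the minus strand, chr17:35262993-35263022 on the plus strand and chr2:122147609-122147638 on the plus strand.
H2-K1: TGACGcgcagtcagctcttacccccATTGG
H2-D1: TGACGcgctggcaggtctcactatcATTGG
B2m: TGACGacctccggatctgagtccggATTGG

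Outside the boxes these stretches differed. H2-K1 and H2-D1 had the same letter at 23 of the 30 positions, while B2m shared 13 with H2-K1 and 12 with H2-D1. The heavy chain windows also held GGGNNTTCC, an NF-kB site, which was found in 4.98% of all windows and in no other member. It began 111 bases before the start in H2-K1 and 171 bases before it in H2-D1. In the next lines capitals mark this site within its flanking bases, a stretch at chr17:34000440-34000468 on the minus strand for H2-K1 and chr17:35262913-35262941 on the plus strand for H2-D1.
H2-K1 site: gcccagggctGGGGATTCCccatctccac
H2-D1 site: gcccagggctGGGGATTCCccatctcctc

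The window of B2m held 1 GAAANNGAA, the core of the interferon-stimulated response element bound by IRF factors, found in 7.13% of all windows. The other motifs searched, on both strands, were TTCNNNGAA, the interferon gamma-activated site, with 1 member (Psmb8) and 7.02% of windows, TGACG alone, with 5 members and 17.8% of windows, and CCAAT, with 6 members and 33.8% of windows. ATTGG is CCAAT on the other strand, so that the paired boxes are also counted among these single motifs. The upstream windows of H2-K1 (chr17:34000348-34000597, minus strand) and B2m (chr2:122147437-122147685, plus strand) are shown whole, since they held every kind of match described for the heavy chains and for B2m and no annotated exon. Capitals mark the NF-kB site and the X2 and Y boxes in H2-K1, and the interferon element and both boxes in B2m.
H2-K1 upstream: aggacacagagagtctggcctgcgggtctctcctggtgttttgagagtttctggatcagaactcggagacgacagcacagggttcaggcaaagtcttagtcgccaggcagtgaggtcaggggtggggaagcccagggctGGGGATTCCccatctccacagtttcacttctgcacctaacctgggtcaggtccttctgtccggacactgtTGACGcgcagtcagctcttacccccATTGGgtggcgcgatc
B2m upstream: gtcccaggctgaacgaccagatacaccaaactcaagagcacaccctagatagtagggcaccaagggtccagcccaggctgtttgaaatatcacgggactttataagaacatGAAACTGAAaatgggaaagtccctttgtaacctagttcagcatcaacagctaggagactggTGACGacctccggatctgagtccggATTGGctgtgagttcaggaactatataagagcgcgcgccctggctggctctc

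A match to these letters is a description of the window, and binding was not measured. Tap1 and Psmb9 are divergent neighbours, and their windows overlapped and both held TGACG and CCAAT, though not in the paired arrangement. These matches were the same bases read from opposite strands. The 5 members with TGACG and the 6 with CCAAT thus include both genes for shared sites. The windows of H2-D1, Psmb8 and Psmb9 lay wholly within exons of longer transcripts of the same gene in GENCODE M21, that of Tap1 lay wholly within exons of Psmb9 on the other strand, and those of Tapbp and Psmb10 held 146 and 52 exon bases of their own gene. Tap2 and Nlrc5 were not among the windows used here.

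Library depth and tissue makeup varied in ways that bear on every value below. Totals, recovered from the steps of the low FPKM values, lay between 18042676 and 21773089 reads in vehicle libraries and between 21237966 and 25192636 in GA libraries. Lipf, a lipase of tongue glands, was above 100 FPKM in vehicle libraries 3 and 5 and GA library 2. Y-linked genes were expressed in vehicle libraries 1 to 4 and GA library 1, so 4 of 6 vehicle and 1 of 6 GA libraries, and sex was thus unevenly divided between the groups. Bulk values cannot tell fewer cells of a type from less RNA per cell.

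The class I genes did not differ between the groups beyond the spread between libraries. None of the 10 was called (Benjamini-Hochberg adjusted p in limma below 0.1, with a log2 fold change of 0.58 or more in either direction), and 0 had an unadjusted p below 0.05. Of all 16847 genes tested with limma, 0 were called (0%), while 188 (1.12%) were higher and 176 (1.04%) lower with GA at an unadjusted p below 0.05. Scaling by the median of ratios turned this split to 153 higher and 217 lower. Each member had a lower mean log2 level with GA, and log2 fold changes ranged from -0.38 (Psmb8) to -0.07 (Tapbp) with a median of -0.22, against 0.0042 for all tested genes. This median moved with single libraries, to -0.41 without vehicle library 1, -0.094 without vehicle library 6, -0.085 without GA library 4 and -0.14 without GA library 5, and was -0.10 with a term for the pan-leukocyte markers. The members moved together over the libraries, as described further on, so these 10 signs are not separate pieces of evidence. Each adjusted p in limma was 0.999985, and exact permutation tests over the 924 assignments of 6 of 12 libraries gave two-sided p between 0.396 and 0.792 (n = 6 per group).

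**Figure D1:**
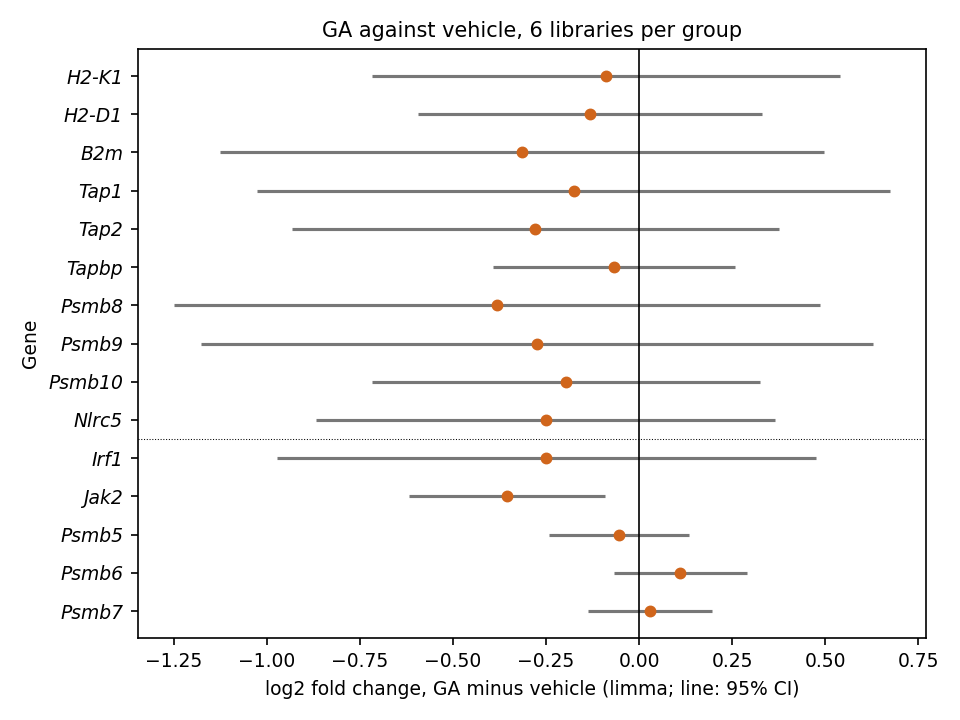
Log2 fold changes (GA minus vehicle, log2 scaled FPKM, x axis) of the 10 class I genes and, under the dotted line, of 5 other pathway genes (y axis), with points for the limma estimate and lines for 95% confidence intervals from 6 libraries per group. All 10 class I points lie between -0.38 and -0.07 and their intervals cross 0, while the interval of Jak2 (-0.62 to -0.09) does not.

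B2m, which pairs with every class I heavy chain, had the highest level of the members, at a mean of 453 scaled FPKM over all 12 libraries. On this scale H2-D1 (208) and H2-K1 (180) followed. Tapbp came next at 21.9, then Tap1 (9.91) and Psmb10 (9.53), then Tap2 (5.56), Nlrc5 (5.24), Psmb8 (4.72) and Psmb9 (3.75). Neighbours in this order had overlapping ranges over the libraries, with the exception of H2-K1 and Tapbp, whose ranges of 98.6 to 265 and 17.3 to 30.9 lay apart. The ranges of Tapbp and Tap1 met only at their ends (lowest Tapbp level 17.3, highest Tap1 level 17.4). The length behind these values was that of all annotated exons, which exceeded the longest coding transcript unevenly. It was 3660 against 1352 bases for Psmb9, 3381 against 1628 for Psmb8, 5476 against 2953 for Tap1 and 8493 against 7578 for Nlrc5. The order of the lower members, and the sizes of ratios between genes below, thus depend in part on the annotation.

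The heavy chains bind the peptide and are what the T cell receptor sees. H2-K1 (ENSMUSG00000061232.16, chr17:33996017-34000347, minus strand) lay between 98.6 and 265 scaled FPKM with vehicle (median 183) and between 100 and 265 with GA (median 191). Vehicle library 1 and GA libraries 4 and 5 formed the low end, close to 100 in each, and vehicle library 6 and GA library 6 the high end, so the groups overlapped over their whole ranges. The log2 fold change was -0.09 (95% confidence interval -0.72 to 0.54).

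H2-D1 (ENSMUSG00000073411.11, chr17:35262730-35267499, plus strand) lay between 146 and 287 with vehicle (median 214) and between 134 and 273 with GA (median 203). The same 3 libraries were lowest and vehicle libraries 4 and 6 and GA library 6 highest, and the groups overlapped. Between the groups it differed by a log2 fold change of -0.13 (-0.59 to 0.33). The ratio of H2-K1 to H2-D1 was 0.676 to 0.998 over the 12 libraries and did not differ between the groups (exact permutation test, two-sided p = 0.695). Reads of the heavy chains are less certain than those of other members, because 8.79% of the 50-base words of the longest H2-K1 transcript and 14.3% of those of H2-D1 occur in transcripts of other genes (most often in H2-D1, with 6.94%, and in H2-Q1, with 7.40%), and the authors counted uniquely mapped reads.

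B2m (ENSMUSG00000060802.8, chr2:122147686-122153083, plus strand) ranged from 204 to 799 scaled FPKM with vehicle (median 436) and from 177 to 613 with GA (median 434). Vehicle libraries 4 and 6, at 796 and 799, stood above every GA library, while GA library 4 was lowest of all and the medians were nearly equal. GA minus vehicle was -0.31 on the log2 scale (-1.12 to 0.50). B2m was 0.756 to 1.62 times the sum of both heavy chains, lowest in GA library 4 and highest in vehicle library 4, without a difference between the groups (exact permutation test, two-sided p = 0.290). None of the 50-base words of B2m occurred in another gene.

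**Figure D2:**
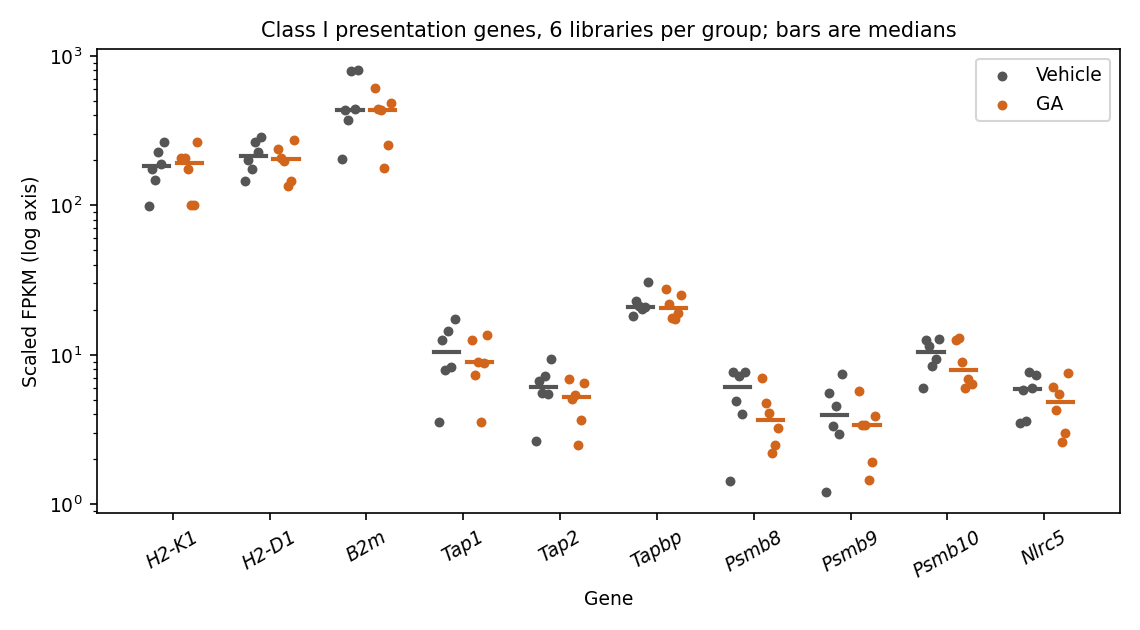
Scaled FPKM on a log axis (y) of the 10 class I genes (x) in 6 vehicle and 6 GA libraries, with a point for each library and a bar for each group median. The groups overlap for every gene, and B2m, H2-D1 and H2-K1 lie above all other members.

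Tap1 and Tap2 form the heterodimer that pumps peptides into the endoplasmic reticulum. Tap1 (ENSMUSG00000037321.17, chr17:34187553-34197225, plus strand) lay between 3.56 and 17.4 scaled FPKM with vehicle (median 10.4) and between 3.55 and 13.6 with GA (median 8.88). Tap2 (ENSMUSG00000024339.12, chr17:34203527-34216321, plus strand) lay between 2.64 and 9.33 with vehicle (median 6.11) and between 2.51 and 6.84 with GA (median 5.23). In both genes vehicle library 1 and GA library 4 were lowest and vehicle library 6 highest, and the groups overlapped. Log2 fold changes were -0.18 (-1.03 to 0.68) for Tap1 and -0.28 (-0.93 to 0.38) for Tap2. Tap1 was 1.35 to 2.40 times Tap2 (exact permutation test between the groups, two-sided p = 0.522).

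Tapbp (ENSMUSG00000024308.15, chr17:33915899-33929292, plus strand) was the steadiest member, with a highest level 1.78 times its lowest. It lay between 18.3 and 30.9 scaled FPKM with vehicle (median 21.0) and between 17.3 and 27.7 with GA (median 20.4). Vehicle library 6 and GA libraries 1 and 6 were high, the other libraries lay close together, and the groups overlapped. Its log2 fold change was -0.07 (-0.39 to 0.26).

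The immunoproteasome subunits replace their constitutive counterparts after interferon and favour peptides that fit class I grooves. Psmb8 (ENSMUSG00000024338.15, chr17:34197721-34201454, plus strand) lay between 1.44 and 7.67 scaled FPKM with vehicle (median 6.07) and between 2.21 and 6.97 with GA (median 3.65). It had the largest difference of the members, and the vehicle median was above 5 of 6 GA libraries, yet vehicle library 1 was the lowest of all 12. Its log2 fold change of -0.38 (-1.25 to 0.49) became -0.72 without vehicle library 1, at an unadjusted limma p of 0.0305 and an adjusted p of 0.99926.

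Psmb9 (ENSMUSG00000096727.3, chr17:34181987-34187764, minus strand) lay between 1.21 and 7.49 with vehicle (median 3.94) and between 1.44 and 5.74 with GA (median 3.40). Its highest level, in vehicle library 6, was 6.19 times its lowest, in vehicle library 1, which was the widest range of the members. The groups overlapped, with a log2 fold change of -0.27 (-1.18 to 0.63). Psmb10 (ENSMUSG00000031897.9, chr8:105935735-105938444, minus strand) lay between 6.00 and 12.8 with vehicle (median 10.5) and between 6.04 and 12.9 with GA (median 7.92), a log2 fold change of -0.20 (-0.72 to 0.33). Its pattern was its own in part, since GA library 6, high in the heavy chains, was among the low libraries here, and GA library 2 was highest.

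The constitutive subunits they replace were far steadier. Psmb5, the counterpart of Psmb8, spanned 101 to 127 scaled FPKM over all libraries, Psmb6, the counterpart of Psmb9, 60.6 to 78.2, and Psmb7, the counterpart of Psmb10, 21.98 to 27.4. The highest level was 1.25 times the lowest for Psmb5, 1.29 times for Psmb6 and 1.25 times for Psmb7, against 5.33 times for Psmb8, 6.19 times for Psmb9 and 2.15 times for Psmb10. The ratio of Psmb8 to Psmb5 accordingly ran from 0.0114 to 0.0688, that of Psmb9 to Psmb6 from 0.0169 to 0.118 and that of Psmb10 to Psmb7 from 0.238 to 0.520. Vehicle library 1 had the lowest value of the first and the second ratio and GA library 4 that of the third. No ratio differed between the groups in exact permutation tests (two-sided p = 0.506, 0.452 and 0.377 in this order, and 0.626 each after adjustment over the 6 ratios compared, which were chosen after the values had been seen).

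Nlrc5 (ENSMUSG00000074151.13, chr8:94434356-94527272, plus strand) lay between 3.48 and 7.65 scaled FPKM with vehicle (median 5.91) and between 2.62 and 7.55 with GA (median 4.87). GA libraries 4 and 5 and vehicle libraries 1 and 3 were low, while vehicle libraries 4 and 6 and GA library 6 were high, so each end held both groups. Its log2 fold change was -0.25 (-0.87 to 0.37). The long gene rested on 516 to 1672 reads per library.

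The fewest reads behind any value of a member were 82, for Psmb9 in vehicle library 1. The SD of the log2 level within groups was 0.27 to 0.80 for the members (median 0.56), against a median of 0.39 for all tested genes. Overlapping genes add a further limit. Of the exon bases of Tapbp, 24.9% lie under an antisense gene, as do 14.7% of those of Psmb8. An overlapping noncoding gene on the other strand covers 14.1% of those of Tap2. Tap1 and Psmb9 share 212 exon bases on opposite strands, and the strand setting of the counting was not given in the sources used here.

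The members were also compared with terms for sex and tissue makeup, and without the libraries with gland tissue. With the presence of Y-linked expression as a term, the 10 log2 fold changes were -0.32 to -0.07 with unadjusted limma p between 0.419 and 0.702. Without the 3 libraries with high Lipf they were -0.51 to -0.11 (0.350 to 0.634). With a term for the skeletal muscle markers they were -0.48 to -0.08 (0.0947 to 0.720), and with a term for the pan-leukocyte markers -0.19 to 0.02 (0.566 to 0.949), where H2-K1 changed sign.

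The libraries differed far more from each other than the groups did, and the members rose and fell together. The mean standardised level of the 10 genes, in SDs from each gene's mean, was lowest in GA library 4 (-1.53), vehicle library 1 (-1.47) and GA library 5 (-0.952). It was highest in vehicle library 6 (1.36), GA library 1 (0.831) and vehicle library 4 (0.718). Both ends thus held libraries of both groups. The other 6 libraries lay between -0.117 and 0.533.

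**Figure D3:**
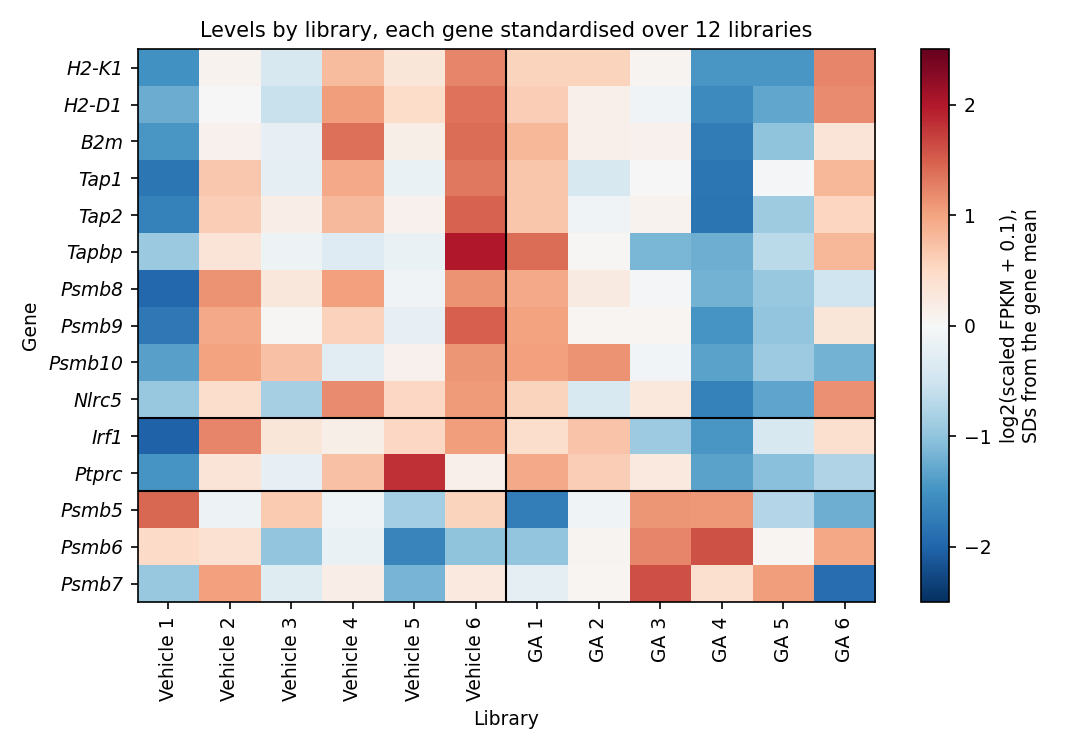
Levels by library, with genes as rows, libraries as columns (6 vehicle, 6 GA, split by the vertical line) and colour for log2(scaled FPKM + 0.1) in SDs from the mean of each gene over 12 libraries. The 10 class I genes are low in GA libraries 4 and 5 and vehicle library 1 (mean -1.53, -0.952 and -1.47) apart from Tap1 in GA library 5, and Psmb5, Psmb6 and Psmb7 in the bottom rows do not follow them.

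Over the 45 pairs of members, Pearson r of the log2 levels over the 12 libraries ranged from 0.389 to 0.979 with a median of 0.837, and 27 pairs reached 0.8. With group means subtracted the median was 0.828. As a background, the mean r over all pairs of tested genes was 0.00385. These pairs share libraries, scaling and tissue makeup, and r is given as a description. The closest pairs were H2-K1 with H2-D1 (0.979), Tap2 with Psmb9 (0.973) and H2-D1 with Nlrc5 (0.961). Tap1 and Psmb9, which face away from each other on chromosome 17, had r of 0.912, and Tap1 and Tap2 0.945. Psmb10, on chromosome 8, was the member least like the others, with a mean r of 0.609 to the other 9, against 0.714 for Tapbp and 0.782 to 0.882 for the remaining members. The lowest r of all, 0.389, was that of Psmb10 with Nlrc5, and both of these genes lie on chromosome 8.

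**Figure D4:**
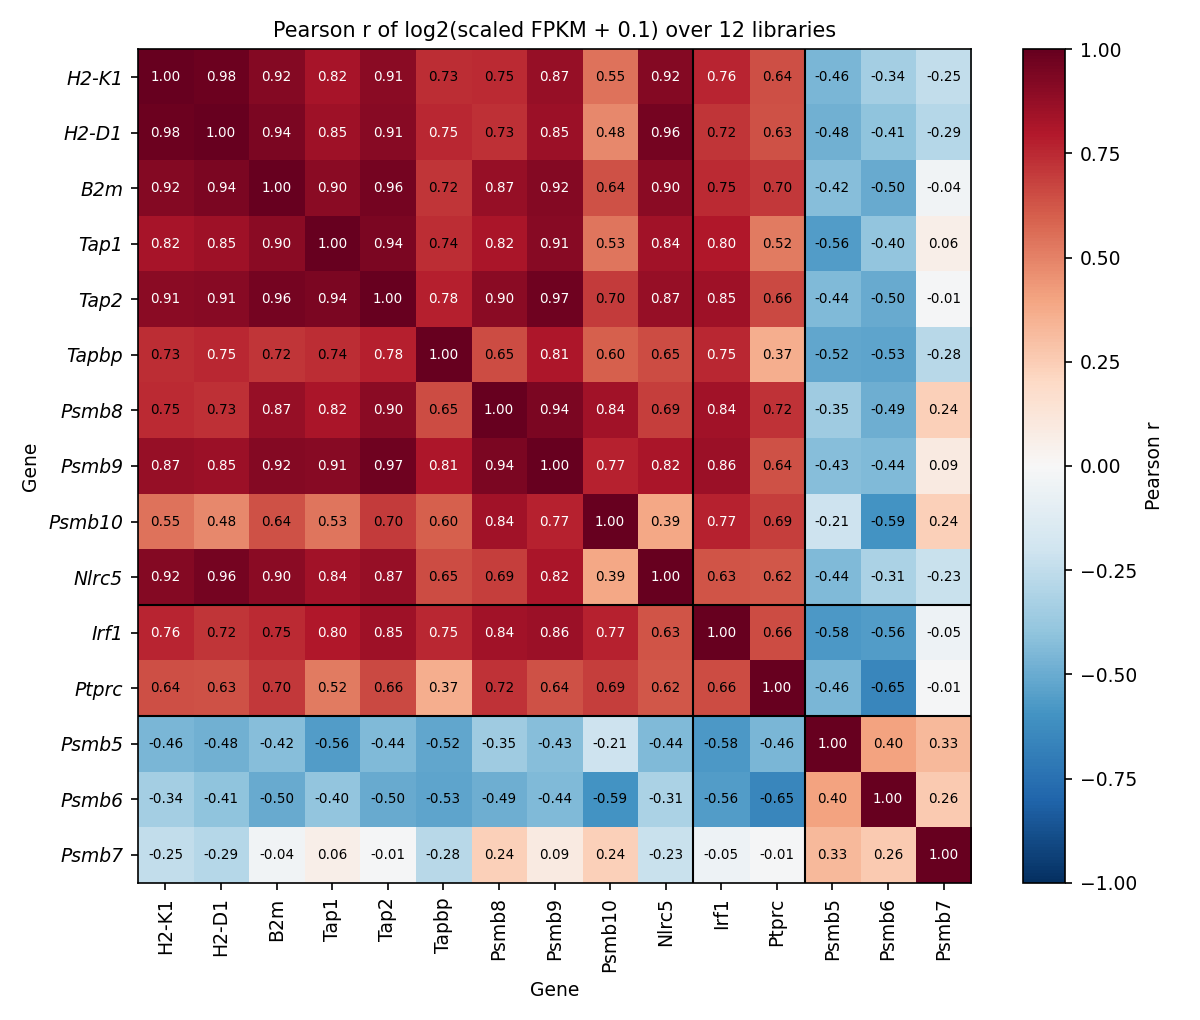
Pearson r of log2(scaled FPKM + 0.1) over 12 libraries between the 10 class I genes, Irf1, Ptprc and the constitutive subunits Psmb5, Psmb6 and Psmb7, with genes on both axes and colour and number for r. The 10 class I genes form a block with r of 0.39 to 0.98, and Psmb5 and Psmb6 have negative r with all 10.

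Nlrc5 was compared with the other 9 members in permutation tests (100000 resamples, two-sided), adjusted with Benjamini-Hochberg over all 29 relations computed, of which those with Nlrc5 and Ptprc are given. With Nlrc5, 8 of 9 relations had an adjusted p below 0.05 by Pearson r and 6 of 9 by Spearman rho. H2-D1 followed it most closely (r = 0.961, rho = 0.951, adjusted permutation p = 0.00029 and 0.00058). The p of this r before adjustment, 1e-05, is the smallest that the resamples can give. For H2-K1 r was 0.917 and rho 0.888, and for B2m 0.900 and 0.937. Without GA libraries 4 and 5, which lay farthest from the median of Nlrc5, r was 0.927 for H2-D1, 0.873 for Tap1, 0.846 for H2-K1 and 0.822 for B2m, and 0.527 to 0.783 for Tap2, Tapbp, Psmb8 and Psmb9. The exception was Psmb10 (r = 0.389, rho = 0.322, adjusted permutation p = 0.214 and 0.309), where r fell to 0.0222 without those 2 libraries. For Tap2 r was 0.874 and for Tap1 0.837 over all 12 libraries. The order of the members after H2-D1 changed with the libraries used and was not tested.

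**Figure D5:**
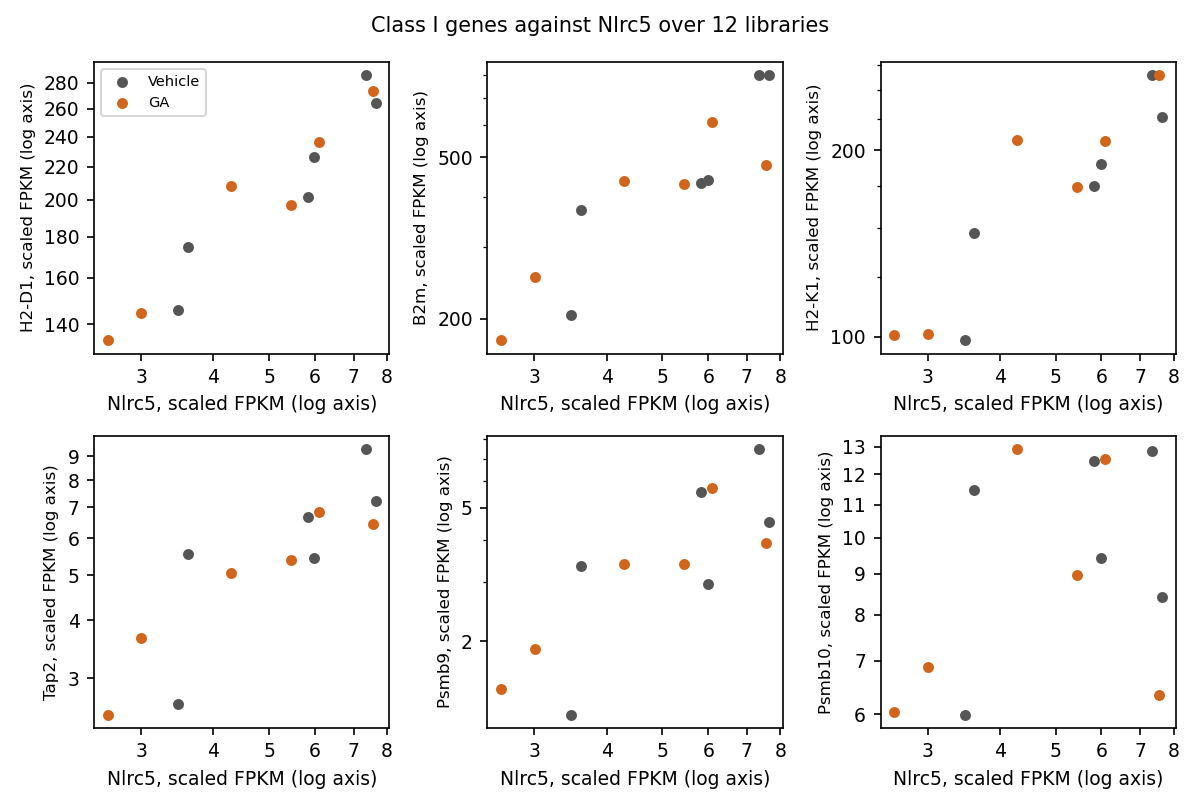
Scaled FPKM (both axes logarithmic) of 6 class I genes (y) against Nlrc5 (x), with a point for each of 6 vehicle and 6 GA libraries. H2-D1, H2-K1, B2m, Tap2 and Psmb9 rise with Nlrc5 (r = 0.961, 0.917, 0.900, 0.874 and 0.816), and the points of Psmb10 are scattered (0.389).

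The relations were also computed within sets of libraries. Among the 7 libraries without Y-linked expression r was 0.972 for Nlrc5 with H2-D1, 0.909 for Nlrc5 with B2m and 0.876 for Nlrc5 with Psmb9, and Tap2 (0.929) lay above B2m. The 5 libraries with Y-linked expression were too few for a value. Without the 3 libraries with high Lipf, r was 0.977, 0.937 and 0.877 for the same relations. Within the vehicle group r was 0.952, 0.904 and 0.761, and within the GA group 0.970, 0.902 and 0.895. For Nlrc5 with Psmb10 r was 0.415 without Y-linked expression and 0.584 without high Lipf. It was 0.395 within the vehicle group and 0.321 within the GA group.

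Ptprc encodes CD45, a phosphatase on the surface of leukocytes, which themselves have high class I levels. Its level spanned 0.309 to 2.11 scaled FPKM, lowest in vehicle library 1 and highest in vehicle library 5. The relation of Ptprc had an adjusted permutation p below 0.05 with 8 of 10 members by Pearson r (r from 0.366 for Tapbp to 0.721 for Psmb8) but with only B2m and Psmb10 by Spearman rho. Without vehicle library 1 none of the 10 had an adjusted p below 0.05 by r, and without GA library 4 only 1 did. The values of r themselves were 0.403 to 0.864 without vehicle libraries 1 and 5, which lay farthest from the median of Ptprc, and 0.506 to 0.925 without the 3 libraries with high Lipf, where 9 relations passed. They were 0.195 to 0.674 within the vehicle group, 0.466 to 0.972 within the GA group and 0.188 to 0.679 among the 7 libraries without Y-linked expression.

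Marker lists of the cell types that a tongue sample can hold were set beside the members. The mean level of the T and NK cell list (12 of 15 genes passed the filter) had r of 0.718 with the mean standardised level of the members, the pan-leukocyte list 0.515 and the macrophage and dendritic cell list 0.533. The r was 0.341 for the fibroblast list, 0.465 for the endothelial list, 0.301 for the muscle list, 0.259 for the neutrophil list, 0.0949 for the squamous epithelium list, 0.0342 for the gland list and -0.0484 for the B cell list. Spearman rho was 0.762 for T and NK, 0.462 for pan-leukocyte and 0.559 for macrophage and dendritic markers, but 0.0839 for endothelial markers. Without the 2 libraries farthest from the median of each list, r was 0.615, 0.531, 0.506 and 0.106 in this order. It was then 0.0602 for the muscle list and 0.362 for the squamous epithelium list. The summed level of the 6 pan-leukocyte markers was 10.1 to 51.3 scaled FPKM with vehicle and 10.3 to 33.3 with GA. The summed T and NK markers were 5.58 to 11.6 and 6.09 to 10.6, and 5 of these 15 genes were at 0 in at least 1 library but none in all. Much of this sum was Cd5, with a mean of 3.95 over all libraries. Cd2 came next at 0.699, and Cd3e was at 0.202. The summed macrophage and dendritic markers were 34.7 to 130 with vehicle and 26.5 to 136 with GA, and none of these 12 was at 0 in a library. Squamous epithelium markers, which define the tongue surface, summed to between 17687 and 48053.5 scaled FPKM, and none of these 10 was at 0 in a library. The part of leukocyte content in the shared pattern of the class I genes was not tested.

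Beyond the members, the genes most like them were sought among all genes whose mean reached 1 FPKM, by Pearson r over 12 libraries with the mean standardised level of the members. The 10 highest were H2-Q6 (0.985), H2-Q7 (0.974), H2-Q4 (0.962), Dhx58 (0.960), Parp12 (0.954), H2-Q5 (0.954), Lgals9 (0.949), Parp9 (0.941), Erap1 (0.935) and Trim56 (0.935). Of these, 4 are class I heavy chains of the Qa region, whose reads are hard to separate from those of H2-K1 and H2-D1. Erap1 trims peptides in the endoplasmic reticulum. Dhx58 encodes an RNA sensor of the RIG-I family, Trim56 a ubiquitin ligase and Lgals9 galectin-9, and Parp9 and Parp12 belong to the PARP family. None of the 10 had an unadjusted limma p below 0.05 between GA and vehicle (lowest 0.305, H2-Q5).

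Other genes of the pathway, its regulators and interferon gamma-induced genes outside it were counted in lists. These held 86 genes, of which 81 passed the filter. As a background, 8581 of all 16847 genes tested were higher and 8266 lower with GA. Over all lists 1 gene had an unadjusted limma p below 0.05, and 0 were called, also under every alternative. That count was 10 without vehicle library 1, 3 without GA library 2 and 1 or 2 under every other alternative. Such a p was found for 364 of all 16847 genes tested in the fit reported. It was found for 417 of 16859 without vehicle library 1 and for 386 of 16836 without GA library 2. Of the 17 other genes of peptide supply, trimming and loading, 8 were higher and 9 lower with GA, and 0 were called or had an unadjusted limma p below 0.05. The largest differences were those of the chaperone Hspa5, at a difference of 0.40 in log2 level (standard error 0.27), and of the peptidase Blmh, at -0.31 (0.26). The mean level of this list did not follow the members over the libraries (r = -0.271). Single genes of the list differed, with r of 0.935 for Erap1 and 0.634 for Tapbpl. For Calr, Canx and Pdia3 it was -0.0449, 0.221 and 0.233. Of 9 other proteasome genes, 4 were higher and 5 lower and 0 had an unadjusted limma p below 0.05. They were the constitutive Psmb5, Psmb6 and Psmb7, the activators Psme1, Psme2, Psme3 and Psme4, and also Psmf1 and Pomp. The largest differences were in Psmb6 (0.11, standard error 0.08) and Psme2 (-0.10, 0.11). The activator subunits Psme1 and Psme2, which are induced by interferon gamma, had r of 0.827 and 0.528 with the mean of the members, against -0.476 for Psmb5, -0.498 for Psmb6 and -0.0498 for Psmb7.

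Of 18 tested other class I and class I-like heavy chains, 6 were higher and 12 lower, again with 0 at an unadjusted limma p below 0.05. The largest differences were in low genes, H2-Q10 (-1.03, standard error 0.62) and H2-Q2 (-0.89, 0.72). H2-T3 and H2-M9 did not pass the filter. The mean level of these 18 genes had r of 0.795 with the members, with a rho of 0.503. Of 13 interferon gamma-induced genes outside the pathway, 2 were higher and 11 lower and 0 had an unadjusted limma p below 0.05, with a median log2 fold change of -0.42. The chemokines Cxcl10 (-1.32, standard error 1.05) and Cxcl9 (-0.97, 1.05), which draw CXCR3+ T cells, differed most and varied most. Cxcl10 ran from 0.0722 to 13.5 scaled FPKM with vehicle and from 0.0580 to 3.96 with GA, so the groups overlapped. This list had r of 0.861 with the members, with a rho of 0.713. Its signs are thus not evidence separate from theirs. Without the 2 libraries farthest from the median of the list, r was 0.666.

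Among the regulators 24 of 26 genes passed the filter, 5 were higher and 19 lower, and 1 had an unadjusted limma p below 0.05. This was Jak2, a kinase of the interferon gamma receptor and of several cytokine receptors, with 10.2 to 15.7 scaled FPKM with vehicle (median 13.02) and 8.85 to 11.6 with GA (median 10.3). The vehicle median was above all 6 GA libraries, while vehicle library 2 lay within the GA range. Its log2 fold change was -0.35 (95% confidence interval -0.62 to -0.09, unadjusted p = 0.0122 and adjusted p = 0.999985 in limma, exact permutation p = 0.0152 with an adjusted value of 1). The study named Jak2 from these libraries, so its direction here is not independent evidence. Jak2 had r of only 0.444 with the mean of the members. For the mean level of all 24 tested regulators r was 0.923 and rho 0.832. The signs of the regulators are thus not evidence separate from those of the members.

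Irf1, a transcription factor that binds the interferon element, had a log2 fold change of -0.25 (-0.97 to 0.48) and r of 0.853 with the mean of the members. Ciita, the class II counterpart of Nlrc5, was at 0.292 to 1.28 scaled FPKM and had r of 0.323. Ifng itself was at 0 to 0.152 scaled FPKM, or 0 to 4 reads per library, and its mean was under the filter. A difference in interferon gamma RNA was not detectable at this depth.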

How the data were processed

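Bulk RNA-seq of tongue was deposited for 6 vehicle and 6 GA libraries, 1 file each. According to the methods, alignment was to mm10 with HISAT2, and featureCounts assigned uniquely mapped reads to genes. The authors deposited FPKM values, used here without 22965 rows that have no gene name. The study fitted a count model, but FPKM are not counts, so limma 3.58.1 (R 4.3.3, with trend) was run on log2(scaled FPKM + 0.1), a scale that understates changes of low genes, where the mean FPKM was 0.1 or more. Scaling was an unweighted trimmed mean of log ratios (30% and 5% trimmed, factors 0.922 to 1.09). Call limits (0.1 and 0.58) were those of the study. Read totals were recovered with GENCODE M21 exon lengths (GRCm38), and 97.6% to 98.2% of low values were whole reads within 0.02. The limma script was tested on simulated data. The members, gene lists and motifs were chosen with earlier results of these data known. Genes named are the members, fixed regulators, the genes of each list with an unadjusted p below 0.05 or otherwise the 2 with the largest differences, and the 10 genes most like the members. Alternatives covered pseudocount, filter, scaling, trend, replicate block, sex, muscle and leukocyte terms, and libraries left out. Results of 1 regulator are not reported here.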

Additional observations from a re-analysis of the deposited data

Results flagged for a closer look

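Among 32 sets of 6 values examined (members and ratios in each group), 2 had a library far from the other 5 by Dixon's test at the 95% level, which chance gives for about 1 in 20 sets. Tapbp in vehicle library 6 was at 30.9 scaled FPKM, and its gap to the next vehicle library was 0.634 of the range of the group. This library also had the highest levels of B2m, Tap1, Tap2, Psmb8 and Psmb9 in the series. The ratio of H2-K1 to H2-D1 was 0.676 in vehicle library 1, the lowest of the group, with a gap of 0.663 of the range.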

How the results depend on the processing

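Over 24 alternative fits, 234 of 240 log2 fold changes of the members kept their sign, 1 reached an unadjusted limma p below 0.05 (Psmb8 without vehicle library 1) and the lowest adjusted p was 0.824. Signs turned for H2-K1 with the leukocyte term (0.018) and, with 1 library left out, for H2-K1 (range -0.254 to 0.0552, above 0 without vehicle library 6 or GA libraries 4 or 5), Tap1 (-0.455 to 0.0683, above 0 without GA library 4), Tapbp (-0.146 to 0.0284, above 0 without vehicle library 6) and the log2 difference of the H2-K1 to H2-D1 ratio (-0.016 to 0.102, below 0 without vehicle library 1 or GA library 2). The cause was not tested. With 1 library left out, the range was -0.546 to -0.102 for B2m, -0.497 to -0.101 for Tap2, -0.577 to -0.0703 for Psmb9 and -0.396 to -0.098 for Nlrc5. The number of genes called among all tested was 0 to 1 with 1 library left out, the 1 being reached without vehicle library 4. The median r of the 45 pairs stayed between 0.796 and 0.878 over all settings. Of the 10 relations of Ptprc, 0 to 9 had an adjusted p below 0.05 with 1 library left out, 3 with a pseudocount of 1 and 8 as reported, so how many passed depended on single libraries, with 0 without vehicle library 1, 4 without vehicle library 4, 5 without GA library 1, 1 without GA library 4 and 3 without GA library 5, although r stayed at 0.403 to 0.864 without vehicle libraries 1 and 5. The relations of Nlrc5 that passed numbered 6 to 8. Libraries with the same replicate number did not deviate together (r of deviations -0.372 to 0.0798). This gave no sign that the numbers pair libraries but cannot exclude it. With the replicate block 0 members and 0 of all genes were called, and 244 genes had an unadjusted p below 0.05, against 364 without it. That count was 552 without a filter on low values, 214 with a filter at a mean of 1 FPKM, 664 with the muscle term and 246 to 840 with 1 library left out (801 without vehicle library 3, 840 without GA library 6). The values rest on 6 libraries per group, and the 95% confidence intervals of Psmb8, Psmb9, B2m and Tap1 still hold a 2-fold decrease.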

Other observations

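Of the B cell markers, 4 of 6 passed the filter. Cd79a, part of the B cell receptor, had a log2 fold change of 1.04 with GA (standard error 0.38, unadjusted p = 0.0179 and adjusted p = 0.999985 in limma, exact permutation p = 0.0216), at 0 to 0.140 scaled FPKM with vehicle and 0.0801 to 0.515 with GA. It is named after its values were seen, and the mean level of the B cell markers had r of -0.0484 with the class I genes.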
